A study of Mus musculus with 383 samples.

Results

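Within the Epcam-negative tumour cells of a mouse skin squamous cell carcinoma model, single cells were compared by the level of 3 neighbouring genes at the start of chromosome 9, Yap1, Birc2 and Tmem123. The cells were selected on measured values: a cell entered the high set when its summed level of the 3 genes was at least 3000 counts per 1000000 gene reads (CPM), and the low set when the sum was under 1000 CPM. Of 310 wells labelled as single Epcam-negative cells, 47 failed the quality limits. Of the kept cells 42.6% were high (62 cells from columns 1 to 12 of the plate and 50 from the other columns), 47.9% were low (61 and 65 cells, likewise) and 25 cells lay between the limits. The whole series held 383 wells, among them 70 single Epcam-positive cells and 3 control wells. All cells were sorted as YFP-positive from skin tumours of genetically engineered mice with Lgr5CreER, p53fl/fl and Rosa26-YFP among their alleles, so the high and the low cells share the floxed p53, the reporter and the Lgr5-driven Cre recombinase. The labels name no mouse and no tumour for any well. Whether high and low cells came from different animals, different tumours or different parts of a tumour cannot be told apart. Each sorted population therefore counts as 1 sample, and no test between the high and the low cells was made.

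Yap1 encodes YAP, a coactivator that the Hippo kinase cascade holds in the cytoplasm and that switches on genes with TEAD transcription factors once it enters the nucleus. Birc2 encodes cIAP1, a ubiquitin ligase that restrains cell death and shapes NF-kB signalling, and its neighbour Birc3 encodes the related cIAP2. Tmem123 encodes porimin, a mucin-like surface protein. In the mouse the 3 genes of the rule lie together on chromosome 9 (GRCm38), Tmem123 at 7764041 to 7794333, Birc2 at 7818227 to 7837064 and Yap1 at 7931999 to 8004596, and they are described here as part of a block that runs to 9.3 Mb. Genes outside that block were not used to choose the cells.

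Promoter sequence is shown for 4 genes outside the block that a reader will meet in the results: Ankrd1, Ccn1 and Amotl2, 3 textbook targets of YAP and TEAD, and Vgll3, a TEAD cofactor. Each line gives the 250 bases before the annotated start, 5′ to 3′ on the strand of the gene, from the RefSeq promoter table (GRCm38.p6), and capitals mark the TEAD motif GGAATG or its reverse complement CATTCC. The intervals are chr19:36119845-36120094 on the minus strand, chr3:145649986-145650235 on the minus strand, chr9:102717554-102717803 on the plus strand and chr16:65814939-65815188 on the plus strand.
Ankrd1: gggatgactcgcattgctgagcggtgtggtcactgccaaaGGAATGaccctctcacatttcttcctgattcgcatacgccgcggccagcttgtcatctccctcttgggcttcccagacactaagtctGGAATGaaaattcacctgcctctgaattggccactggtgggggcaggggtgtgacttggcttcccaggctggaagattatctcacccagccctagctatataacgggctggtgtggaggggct
Ccn1: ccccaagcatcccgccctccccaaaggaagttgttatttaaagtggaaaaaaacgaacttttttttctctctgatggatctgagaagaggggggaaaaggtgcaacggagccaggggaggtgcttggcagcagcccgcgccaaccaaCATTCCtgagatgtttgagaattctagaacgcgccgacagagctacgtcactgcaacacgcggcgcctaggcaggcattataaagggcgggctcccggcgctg
Amotl2: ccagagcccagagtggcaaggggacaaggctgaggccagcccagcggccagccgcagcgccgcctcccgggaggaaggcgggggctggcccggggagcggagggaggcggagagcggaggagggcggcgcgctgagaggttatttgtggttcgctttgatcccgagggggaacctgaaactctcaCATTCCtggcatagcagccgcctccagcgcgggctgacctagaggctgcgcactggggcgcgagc
Vgll3: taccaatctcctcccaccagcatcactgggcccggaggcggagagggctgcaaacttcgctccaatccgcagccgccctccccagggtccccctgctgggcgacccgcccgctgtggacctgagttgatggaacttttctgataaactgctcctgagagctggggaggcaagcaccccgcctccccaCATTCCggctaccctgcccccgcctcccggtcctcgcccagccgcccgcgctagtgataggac
The motif occurs at 2 places in Ankrd1, the farther one 210 bases before the start, and at 1 place in each of the others, 65 bases before the start in Amotl2 and 63 in Vgll3. Of 22 listed YAP and TEAD targets, 15 were in the table and 6 held the motif in this window (Amotl2, Ankrd1, Axl, Ccn1, Crim1 and Ptpn14). Counted per gene in the same way, 14.4% of 27025 genes held it. A match of 6 letters is a description of the window and shows no binding. Ccn2 is named only.

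Read depth was similar in the compared sets. The median was 410496 gene reads per cell in the high set and 418021 in the low set, with 6683 and 6578 genes with a read. Mitochondrial reads made up a median of 3.94% and 4.99%. Gene reads per spike-in read, a measure of RNA content, had medians of 150.7 and 168.01. Both sets were spread over the plate columns, but rows O and P held 28 high and 11 low cells. The Epcam-negative well set up with no cell held 4018 gene reads, of which 24 fell on the 3 selecting genes, or 5973 CPM, so reads of these genes were also assigned to a well set up without a cell. The Epcam-positive well set up with no cell held 99241 gene reads, close to the depth limit for a cell, with a sum of 1088 CPM. Intervals given with pooled levels and shares are 95% intervals (exact Poisson, conditional binomial or Clopper-Pearson). The Poisson and conditional binomial intervals treat reads as independent, although without molecular identifiers several reads can come from 1 molecule. They leave out the spread between cells. The Clopper-Pearson intervals on shares treat cells as independent draws. None of them covers the spread between animals or tumours.

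The high and the low set also differed in epithelial state. Krt14, the basal keratin of epidermis, was present in 35 high cells (31.2%, interval 22.8 to 40.7%) and in 83 low cells (65.9%, 56.9 to 74.1%). Epcam was present in 3 high and 8 low cells. The lists and the named genes were therefore also compared within the cells in which Krt14 was under 5 of 100000 reads, 77 high and 43 low cells, called Krt14-low here. That limit cuts a graded level, with 54 high and 32 low cells at 1 to 4 reads and 6 and 8 cells at 5 to 9 reads.

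The 3 selecting genes spread over more than 3 orders of magnitude in sum. In the low set the median sum was 195.6 CPM and in the high set 8333 CPM, and the extremes over the kept cells were 8.1 and 58910 CPM. Just inside the high set lay cells with 3202, 3220 and 3272 CPM, and just outside it cells with 2872, 2878 and 2986 CPM. Under the low limit lay cells with 935.5, 935.6 and 990.5 CPM, and the first cell above it had 1001 CPM. The sums ran without a gap at either limit, so the limits cut a graded measure. Whether the sets hold separate kinds of cells was not tested. Yap1 ranged from 37.2 to 7982 CPM in high cells (median 1951) and from 0 to 423 CPM in low cells (median 30.7). Birc2 had a median of 1074 CPM in high cells (0 to 6104) and 9.33 CPM in low cells (0 to 455). Tmem123 had a median of 5048 CPM in high cells (786 to 54635) and 106.8 CPM in low cells (0 to 785), and the highest low cell stayed just under the lowest high cell. These values are fixed by the rule and are given as a description.

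**Figure D1:**
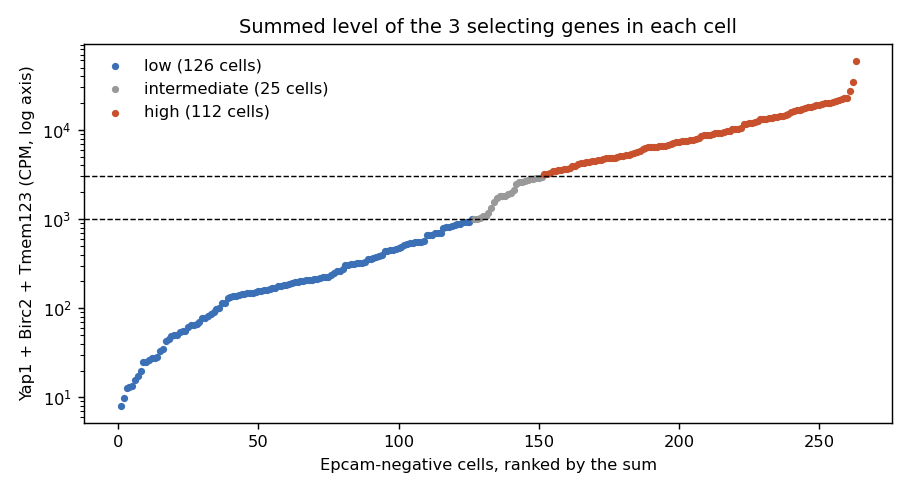
Summed Yap1, Birc2 and Tmem123 level in CPM (log axis) for each of the kept Epcam-negative cells, ranked from lowest to highest, with dashed lines at 1000 and 3000 CPM. The low and high cells lie on a continuous curve with 25 intermediate cells between the limits.

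The block around the selecting genes held 25 genes at 10 CPM or more in either set, of 85 annotated there. Among the 22 not used in the rule, 17 were at least 2-fold and 12 at least 4-fold higher in the high cells, 5 were within 2-fold, and the median log2 ratio of pooled levels (each plus 1 CPM) was 2.84. Over the 9248 genes measured outside the block, 5.50% were 2-fold or more higher in the high cells. Since the block was used to choose the cells, nothing is read from that contrast, and the next lines say only which neighbours moved with it. Birc3 stood at 1321 CPM in high and 71.3 CPM in low cells pooled, a log2 ratio of 4.19 (interval 4.15 to 4.24), and was present (5 or more of 100000 reads) in 95.5% and 34.1% of cells. Cfap300, on the other side of Yap1, stood at 723 against 20.7 CPM (log2 ratio 5.06) and was present in 91.1% and 14.3% of cells. Cep126, the next gene, encodes a centrosomal protein and stood at 46.5 against 0.745 CPM.

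Neighbours further towards the start of the chromosome had high pooled ratios that rested on fewer cells. Dcun1d5, Aasdhppt, Dync2h1 and Msantd4 had log2 ratios of 3.20, 3.16, 3.35 and 4.42, but were present in 87.5%, 53.6%, 32.1% and 33.9% of high cells. Kbtbd3, Gucy1a2, Alkbh8 and Cwf19l2 had log2 ratios of 3.76, 3.98, 2.96 and 2.72. For Msantd4, the single cell with most reads held 25.9% of all its reads in the high set. The metalloprotease genes of the block were led by single cells. Mmp3, stromelysin-1, stood at 7391 against 3546 CPM, yet 1 high cell held 61.1% of the reads and without it the log2 ratio was -0.28. Mmp12 stood at 99.8 against 1.06 CPM and was present in 8.93% of high cells and in no low cell (interval up to 2.89%). Mmp13, Mmp10, Mmp1a and Mmp1b had log2 ratios of 1.96, 1.57, 1.31 and 1.30, with 1 cell holding 30.3%, 29.6%, 42.3% and 25.3% of their reads in the high set. Without that cell the ratio of Mmp1a was 0.59 and that of Mmp1b 0.94. On the low side 1 cell held 91.4% of the low-set reads of Mmp1a, and without that low cell the ratio was 3.64. Leaving out the low cell with most reads of the gene gave 1.71 for Mmp1b and 1.55 for Mmp3. Mmp1a and Mmp1b are close copies, and reads can be split between them.

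The block was not uniform. The inflammatory caspase genes lie between these neighbours, and Casp1 stood at 173.3 CPM in high and 196.8 CPM in low cells (log2 ratio -0.18) with presence in 58.04% and 58.7% of cells. Casp4 and Casp12 had log2 ratios of 0.06 and 0.83. Gria4, a glutamate receptor subunit gene, had a ratio of 0.52, and Arhgap42, the measured gene nearest the end of the block, had 0.59. Among the Krt14-low cells these 5 genes had ratios of -0.62 (Casp1), -0.45 (Casp4), -0.09 (Casp12), -0.50 (Gria4) and -0.34 (Arhgap42). The first 10 measured genes beyond the block had a median log2 ratio of 0.38, from -0.74 to 1.38.

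**Figure D2:**
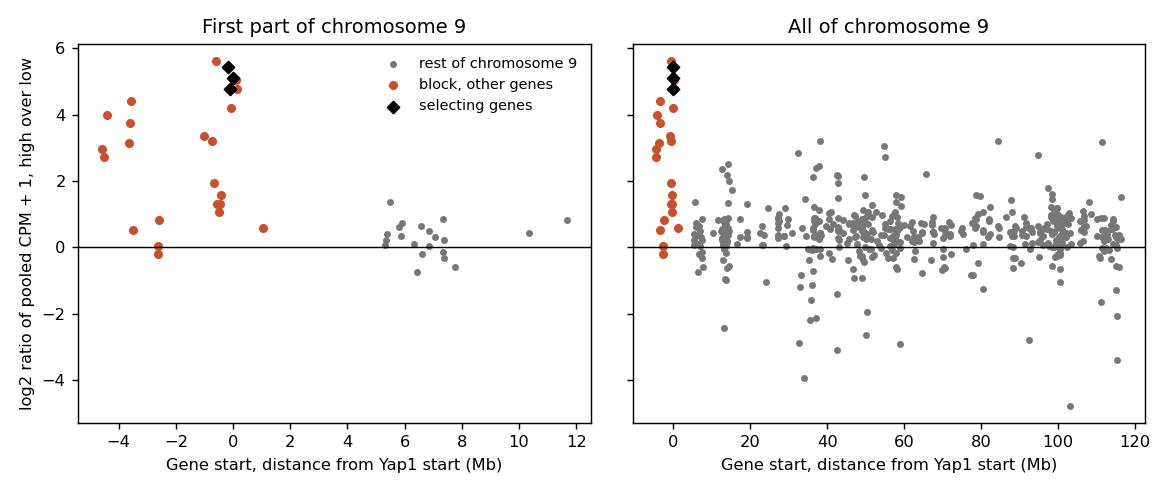
Log2 ratio of pooled CPM + 1 in high over low cells for each measured gene of chromosome 9 against its distance in Mb from the start of Yap1, for the first part (left) and the whole chromosome (right). Diamonds mark the 3 selecting genes, the other block genes reach 5.61, and the rest of the chromosome lies around a median of 0.43.

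The rest of chromosome 9, which the rule did not use, was also higher in the high cells. Its 495 measured genes outside the block had a median log2 ratio of 0.43, against -0.01 over all 9248 genes outside the block, and 61 of them (12.3%) were 2-fold or more higher, against 5.50% of all genes. Cut into windows of 20 measured genes, all 24 windows of chromosome 9 outside the block had a median above 0, from 0.26 to 0.73. Chromosome 6 came next with a median of 0.36 over 470 genes, 56 of them (11.9%) 2-fold or more higher and 22 of 23 windows above 0. Among the Krt14-low cells the medians were 0.50 for chromosome 9 and 0.46 for chromosome 6 against 0.17 for all genes. The medians of the other chromosomes over all cells lay between -0.16 (chromosome 5) and 0.16 (chromosome 13). Of the 12 windows with a median above 0.5, 7 lay on chromosome 9, 4 on chromosome 6 and 1 on chromosome 17. Genes of 1 chromosome share libraries and neighbours, so these counts describe the 2 sets of cells and are no test.

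The same pattern was visible cell by cell. To keep a few abundant genes from setting the value, reads were counted over 8464 genes outside the block with pooled levels from 10 to under 500 CPM, a measure chosen after seeing the data. Chromosome 9 took a median of 5.30% of those reads in the high cells (quartiles 5.02 and 5.57%) and 3.61% in the low cells (3.21 and 4.96%). The share was above the low median in every high cell. Low cells were split: 81 of them (64.3%) had a share under 4.2%, and the others overlapped the high cells, of which 6 (5.36%) were under 4.2%. Among the 62 Epcam-positive cells, 37 (59.7%) were under 4.2%. Of the Krt14-low cells, 2 of 77 high and 19 of 43 low cells were under it. For chromosome 6 the medians were 6.44% in high and 4.85% in low cells, and 98 high cells lay above the low median. The ratio of the medians, high over low, was 1.47 for chromosome 9, 1.33 for chromosome 6, 1.129 for chromosome 10 and 0.902 for chromosome 5, the lowest. DNA copy number was not measured.

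**Figure D3:**
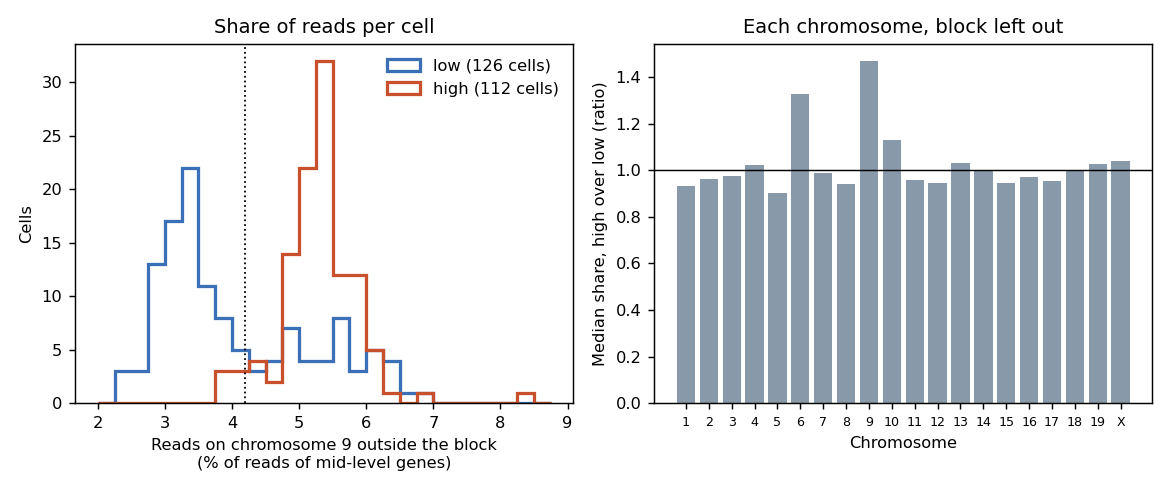
Left, number of low and high cells by the percentage of reads of mid-level genes that fell on chromosome 9 outside the block, with a dotted line at 4.2%. Right, for each chromosome without the block, the median share in high cells divided by that in low cells, where chromosomes 9 (1.47) and 6 (1.33) stand highest.

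Across all genes outside the block, 509 of 9248 measured genes were 2-fold or more higher and 803 were 2-fold or more lower in the high cells, 5.50% and 8.68%. Taken in plate columns 1 to 12 and 13 to 24 apart, 489 of the 509 higher genes were higher in each, and 57.8% were 2-fold or more higher in each. Of the 803 lower genes 782 were lower in each, and 64.6% were 2-fold or more lower in each. The genes were called over these same cells pooled, so this agreement is largely set by the selection and is no check. Leaving out, gene by gene, the high cell with most reads left 328 higher genes.

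Among the Krt14-low cells, 1198 of 9141 genes (13.1%) were 2-fold or more higher and 830 (9.08%) 2-fold or more lower, and the median of all genes was 0.17, so ratios there are read against that shift. The higher genes of both comparisons had 376 in common, 73.9% of the 509 and 31.4% of the 1198. The lower genes had 403 in common, 50.2% of the 803 and 48.6% of the 830.

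Targets of YAP and TEAD were led by Ankrd1. This gene encodes a nuclear cofactor that muscle and wounded tissue use, and it had the highest ratio of the genes eligible to be named: 386 CPM (interval 380 to 391) in high cells, 9.55 CPM (8.72 to 10.4) in low cells and 105.4 CPM in intermediate cells, a 40.4-fold difference and a log2 ratio of 5.20 (5.08 to 5.32). Among high cells its level ran from 0 to 2748 CPM with a median of 102.2, and among low cells from 0 to 211.7 CPM with a median of 0. Ankrd1 was present in 71 high cells (63.4%, 53.8 to 72.3%) and in 6 low cells (4.76%, 1.77 to 10.1%). The high and low cells overlapped at 0, and the ratio was 5.07 in the Krt14-low cells.

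Ccn1, a secreted matricellular protein, stood at 2165 CPM in high, 558 CPM in low and 2012 CPM in intermediate cells (log2 ratio 1.95). Its level ran from 0 to 14645 CPM in high cells (median 1430.3) and from 0 to 5273 CPM in low cells (median 240.96), so the ranges overlapped. Ccn2, its relative and a second standard read-out of YAP, stood at 689 and 212.5 CPM (1.69), with medians over cells of 199.8 and 58.2 CPM and wide overlap. Amotl2, an angiomotin that binds YAP and is itself a target, stood at 202.8 and 28.6 CPM (2.78) and was present in 58.9% of high and 15.1% of low cells. The median over cells was 86.97 CPM in the high set, with a highest cell of 1187 CPM, and 2.03 CPM in the low set, with a highest cell of 439 CPM. Amotl2 lies on chromosome 9, outside the block, as does Rbms3 of the same list. In the Krt14-low cells the ratios of Ccn1, Ccn2 and Amotl2 were 1.70, 1.86 and 2.05.

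The whole list of targets did not follow these 4. Of 21 measured members, 6 were 2-fold or more higher (Ankrd1, Amotl2, Ccn1, Ccn2, Gadd45a and Rbms3), against 5.50% of all genes, and 3 were 2-fold or more lower (Nt5e, Fjx1 and Igfbp3), against 8.68%. The median log2 ratio was 0.59, against -0.01 over all genes, and in the Krt14-low cells it was 0.49 against 0.17, with 5 higher and 3 lower of 21, where 13.1% and 9.08% of all genes were. The list median was 0.12 when taken in plate rows D to I alone and 0.33 without the high cell with most reads of each gene. Nt5e, the ecto-enzyme CD73, stood at 58.3 against 139.9 CPM. Axl, a receptor kinase and named target, stood at 847 against 551 CPM (0.62). The list was known from earlier results of these data and was not an independent choice.

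**Figure D4:**
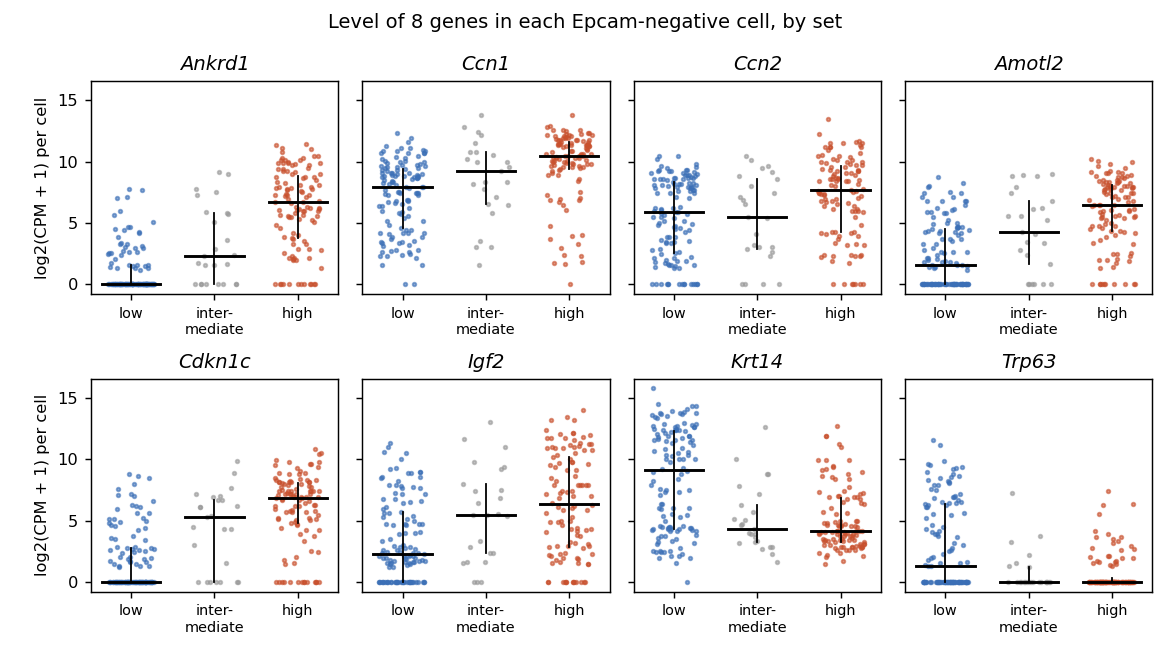
Level in each Epcam-negative cell, as log2(CPM + 1), of 8 genes in the low, the 25 intermediate and the high cells, with the median (thick bar) and quartiles (thin line). Ankrd1, Amotl2 and Cdkn1c have a lower median in low cells (0 CPM for Ankrd1 and Cdkn1c, 2.03 CPM for Amotl2) than in high cells, while Krt14 runs the other way and every panel shows overlap.

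Among the other parts of the Hippo pathway, Vgll3 and Tead2 were higher in the high cells. Of 18 measured partners and kinases, these 2 were 2-fold or more higher, against 5.50% of all genes, and none was 2-fold or more lower, against 8.68%, with a median log2 ratio of -0.03 (0.21 in the Krt14-low cells). Vgll3, the TEAD cofactor whose promoter is shown above, stood at 72.4 against 7.11 CPM (3.18). Tead2 stood at 37.9 against 8.47 CPM (2.04), while Tead1 stood at 184.5 against 155.1 CPM (0.25). Lats2, a kinase that inhibits YAP and is also a YAP target, stood at 103.4 against 51.3 CPM, just under the 2-fold limit. Wwtr1, which encodes TAZ, the paralog of YAP, was lower in the high cells, at 193.9 against 323 CPM (-0.73), with medians over cells of 123.6 and 250.8 CPM.

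Among partners of Birc2 in cell death and NF-kB signalling, Mcl1 and Traf1 were lower in the high cells. They were the 2 of 25 measured members that were 2-fold or more lower, a share near the 8.68% over all genes, and none was 2-fold or more higher, against 5.50%. The median was -0.42. The list was split in the Krt14-low cells, with 3 of 25 higher (13.1% over all genes), 4 lower (9.08%) and a median of -0.06. Mcl1, a survival protein of the Bcl-2 family, stood at 189.97 CPM in high and 532 CPM in low cells (-1.48, and -1.51 in the Krt14-low cells). Traf1 stood at 11.7 against 41.3 CPM. Nfkbia, the NF-kB inhibitor and target, stood at 1197 against 2117 CPM. Pmaip1, a death-promoting gene, had a ratio of 3.28 among the Krt14-low cells and -0.67 over all cells.

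Of 19 genes of Ras and ERK output, none was 2-fold or more higher, against 5.50% of all genes, and 3 were 2-fold or more lower, against 8.68%, with a median of -0.16. The sign of the median turned in the Krt14-low cells, where it was 0.27 with 2 genes higher (13.1% over all genes) and 3 lower (9.08%). Areg, an EGF receptor ligand, stood at 60.7 against 379 CPM, and Spry4 and Etv1 had ratios of -1.53 and -1.32. Trp53 stood at 12.6 against 24.9 CPM (-0.93). Gene counts do not show which exons the remaining Trp53 reads come from. Cdkn1a, the p53 target p21, stood at 80.1 against 437 CPM (-2.43), and the 10 genes of the p53 list had a median of -0.74 with 4 of them 2-fold or more lower, against 8.68% of all genes. The median was -0.37 in the Krt14-low cells, with 3 of 9 lower against 9.08%. Eda2r, another of the 4, had a ratio of -2.01 that moved to -1.03 without 1 low cell and to -3.61 without 1 high cell.

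Among genes of any function, the 12 with the highest ratios under the naming rule included a group of imprinted growth genes. Igf2, a fetal growth factor, stood at 1069 CPM in high and 122.1 CPM in low cells (3.12), from 0 to 16311 CPM in high cells (median 82.3) and from 0 to 2568 CPM in low cells (median 3.99). Cdkn1c, the cyclin-kinase inhibitor p57, stood at 210.9 against 19.9 CPM (3.35) and was present in 66.1% and 13.5% of cells. Meg3, an imprinted noncoding RNA, and Ndn, which encodes necdin, had ratios of 3.26 and 3.25. A single low cell held 53.1% of the low-set reads of Ndn and 42.4% of those of Meg3, and the ratios without it were 4.2 and 3.97. H19, the noncoding neighbour of Igf2, was the reverse of it: 107.2 CPM in high and 781 CPM in low cells (-2.85), present in 14.3% and 50.8% of cells. In the Krt14-low cells Igf2 had a ratio of 2.50 and H19 of -4.00. These genes were grouped after their values were seen.

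The remaining genes of the 12 were Akap12, Cpa4, Tagln, Vgll3, Amotl2, Cdh2 and Aif1l. Akap12, a scaffold of protein kinases A and C, stood at 168.5 against 9.60 CPM (4.00), present in 54.5% and 3.17% of cells, and 1 low cell held 58.8% of the low-set reads. Cpa4, a carboxypeptidase gene on chromosome 6, had a ratio of 3.70. Cdh2, N-cadherin, stood at 56.98 against 7.68 CPM (2.74) and was present in 41.1% and 3.97% of cells. Aif1l, an actin-binding protein gene, had a ratio of 2.70.

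Among mesenchymal cytoskeleton and surface genes, Acta2, Tagln, Cnn1, Myl9, Nes, Cald1 and Cdh2 were higher in the high cells. These were 7 of 16 measured genes, against 5.50% of all genes. None was 2-fold or more lower, against 8.68%, and 5 had ratios under 0. The median was 0.80, and 0.77 in the Krt14-low cells, with 5 higher (13.1% over all genes) and 1 lower (9.08%) there. Acta2, smooth-muscle actin, stood at 3303 against 980.4 CPM (1.75), from 0 to 31918 CPM in high cells (median 1383) and from 0 to 14974 CPM in low cells (median 136.4). Tagln, transgelin, stood at 51.9 against 4.72 CPM (3.21) and lies on chromosome 9, as does Cnn1, calponin, at 12.6 against 1.37 CPM (2.52). Myl9 and Nes had ratios of 1.86 and 1.99, and Cald1 of 1.01. Vim, the mesenchymal intermediate filament, did not differ by 2-fold: 5214 against 6468 CPM (-0.31), present in 100% of high and 97.6% of low cells. The median of the list was 0.39 in plate columns 13 to 24 alone and 1.22 in columns 1 to 12.

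Of 7 measured EMT transcription factors, none was 2-fold or more higher, against 5.50% of all genes. Twist2 was the 1 that was 2-fold or more lower, against 8.68%, at 1.31 against 15.8 CPM (-2.86). Counts this small among 7 genes are not read as a result. The median over the 7 was 0.00. Among the Krt14-low cells 2 were 2-fold or more lower (9.08% over all genes) and none was higher (13.1%). There 6 had ratios under 0 and the median was -0.36, against 0.17 over all genes. Zeb1 stood at 41.8 against 56.5 CPM and Snai2 at 17.5 CPM in both sets. The surface markers of transition states in this tumour model stood at 155.2 against 161.6 CPM for Itgav, 5.86 against 11.8 CPM for Itgb3 and 131.9 against 109.5 CPM for Vcam1. Vcam1 was at 374 CPM in the 25 intermediate cells.

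Epithelial genes were lower in the high cells. Of 23 measured junction, keratin and regulator genes 21 were 2-fold or more lower, against 8.68% of all genes, with a median of -3.34. Krt6a, a wound keratin, stood at 8.83 against 556 CPM (-5.82), Krt5 at 31.8 against 1055 CPM (-5.01) and Krt14 at 235.4 against 3577 CPM (-3.92). Over single cells Krt14 ran from 1.85 to 6833 CPM in the high set (median 16.9) and from 0 to 56264 CPM in the low set (median 558), so keratin-rich cells were present in both. Trp63, the master regulator of stratified epithelium, stood at 3.96 against 90.04 CPM (-4.20), and the desmosomal genes Dsp and Dsc3 had ratios of -5.18 and -3.85. Krt6a shares much of its sequence with Krt6b, so reads could be split between them. Epcam stood at 7.32 against 41.04 CPM, with 70.1% of the high-set reads and 41.5% of the low-set reads in 1 cell each, and the ratio of -2.34 was -3.71 without the high cell and -1.60 without the low cell. The ratios of Krt15, Cldn4 and Krt17 (-2.13, -2.21 and -4.10) moved in the same way, to -0.63, 0.68 and -3.60 without 1 low cell and to -5.18, -3.11 and -5.49 without 1 high cell. Krt18, a simple-epithelium keratin, went the other way at 105.01 against 28.3 CPM (1.85). In the Krt14-low cells the list had 10 measured genes, 4 of them 2-fold or more higher (13.1% over all genes) and 2 lower (9.08%). There 6 had ratios above 0 and the median was 0.01. Those cells were selected on Krt14, a member of this list, so that median is partly set by the selection. Dsp (-2.90) and Krt17 (-2.32) were still lower there. Krt6a stood at 2.99 against 3.90 CPM in those cells, a ratio of -0.30.

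The genes of hemidesmosomes, which anchor basal cells to the basement membrane, followed the keratins. Of 11 measured, 6 were 2-fold or more lower, against 8.68% of all genes, and none was 2-fold or more higher, against 5.50%. The median was -1.68, and 4 had ratios above 0. In the Krt14-low cells 2 of 9 were higher (13.1% over all genes), 1 was lower (9.08%) and the median was 0.62. Col17a1 stood at 11.7 against 245.04 CPM (-4.28), and Lama3 and Lamb3 had ratios of -4.15 and -3.48. Itga3, the laminin-binding integrin subunit, stood at 75.98 against 45.4 CPM (0.73) over all cells and at 68.9 against 7.81 CPM (2.99) in the Krt14-low cells.

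The other genes with the lowest ratios were Enpp2, Plek2, Cbr2, Urah and Sncg. Enpp2, which encodes autotaxin, the enzyme that makes lysophosphatidic acid, stood at 4.39 against 114.98 CPM (-4.43), and at -5.10 in the Krt14-low cells. Plek2, a pleckstrin of the actin cortex, and Cbr2, a carbonyl reductase, had ratios of -4.32 and -3.82. Urah, of urate breakdown, stood at 10.6 against 139.9 CPM (-3.60), and Sncg, gamma-synuclein, at 14.01 against 164.8 CPM (-3.47). Unlike that of Enpp2, these ratios were smaller in size in the Krt14-low cells. They were -1.23 for Plek2, -2.78 for Cbr2, -1.16 for Urah and -2.40 for Sncg there.

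Within the Krt14-low cells, the 12 highest ratios belonged to Ankrd1, Akap12, Gatm, Cpa4, Cdh2, Msln, Cdkn1c, Eno3, Itga3, Arhgap29, Aif1l and Msmo1. Msln, mesothelin, a surface protein of mesothelium and many carcinomas, stood at 549 against 52.9 CPM (3.35), present in 62.3% and 18.6% of cells. Gatm, an enzyme of creatine synthesis, stood at 54.6 against 1.76 CPM (4.33) and was present in 0 of 43 low cells. Eno3, a muscle enolase, and Arhgap29, a GTPase regulator, had ratios of 3.05 and 2.94, and Msmo1, an enzyme of cholesterol synthesis, of 2.82. Over all cells of the sets, Eno3, Msln and Msmo1 had smaller ratios of 1.49, 1.42 and 0.78.

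Matrix genes were compared over all cells and in the Krt14-low cells. Over all cells 4 of 27 matrix genes were 2-fold or more higher (Lox, Loxl2, Thbs1 and Mfap5), against 5.50% of all genes. Another 5 were 2-fold or more lower, against 8.68%, and the median was -0.11. Among the Krt14-low cells none was 2-fold or more higher (13.1% over all genes) and 12 were lower (9.08%), with a median of -0.84 against 0.17 over all genes. Col1a1, the chain of fibrillar collagen I, stood at 2350.5 against 2763 CPM over all cells (-0.23) and at 2201 against 5213 CPM (-1.24) in the Krt14-low cells. Col6a3 stood at 107.8 against 958 CPM (-3.14) there, and was present in 18.2% and 81.4% of cells. Dcn, decorin, a marker of fibroblasts, stood at 2334 against 8774 CPM in the same cells. Lum, lumican, had the lowest ratio of the list at -3.69 over all cells and -4.73 in the Krt14-low cells.

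Among the 12 lowest ratios in the Krt14-low cells were those of Enpp2, Lama2, H19, Srpx, Cdh13, Gdf10, Col6a3, Edil3, Fxyd5, Aqp1 and Tgfbi. Lama2, a laminin chain, stood at 4.63 against 100.6 CPM (-4.17). Cdh13, a cadherin anchored by lipid, stood at 18.8 against 230.4 CPM (-3.55), present in 15.6% and 62.8% of cells. Tgfbi, a matrix protein induced by TGF-beta, stood at 45.3 against 388 CPM (-3.07). Of the 13 measured genes of the TGF-beta pathway, Tgfbi was the 1 that was 2-fold or more lower, over all cells (-2.49) as in the Krt14-low cells. Over all genes 8.68% and 9.08% were lower, shares near 1 of 13. Over all cells 1 was 2-fold or more higher (Tgfbr2, the type II receptor, 276.04 against 106.3 CPM), near the 5.50% over all genes, and the list median was 0.15. In the Krt14-low cells 3 were higher (13.1% over all genes) and the list median was 0.03.

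Markers of other cell types were checked because a sorted gate can hold them. The 8 dermal fibroblast markers had a summed level of 142.5 to 27478 CPM in high cells (median 1273) and 90.1 to 50702 CPM in low cells (median 5318), with Dcn at 1865 against 5602 CPM. Of the 6 measured, 3 were 2-fold or more lower, against 8.68% of all genes, and none was 2-fold or more higher, against 5.50%. Tumour cells of this model express such genes after EMT, and the part of these markers in the results was not tested. The 14 immune markers had medians of 2.61 and 2.05 CPM in high and low cells, with maxima of 527 and 2878 CPM. Adgre1 was at 0 reads in both sets and Ptprc at 0 in the low set. S100a8 and S100a9 were lower in the high cells (-2.46 and -3.32), and Cd3e was at 12.1 against 1.49 CPM. No endothelial, melanocyte, Schwann cell or erythroid marker reached 10 CPM in either set. Pericyte markers had median sums of 8.10 and 31.3 CPM, and Mcam stood at 15.4 against 2.78 CPM. Rgs5 had a ratio of 0.37 that was -2.07 without 1 high cell and 3.76 without 1 low cell. Among muscle and fat markers 1 was measured, Fabp4, at 0.831 against 13.4 CPM. Xist reads stood at 305.9 against 409 CPM, and reads of 4 Y-linked genes came to 1 in each set.

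The share of cells with Mki67 or Top2a, markers of dividing cells, was 15.2% in the high set (17 cells, 9.10 to 23.2%) and 16.7% in the low set (21 cells, 10.6 to 24.3%). Mki67 stood at 18.7 against 42.4 CPM (-1.14) over all cells and at 19.03 against 12.6 CPM in the Krt14-low cells. Of 15 genes of G2 and M phase, 6 were 2-fold or more lower, against 8.68% of all genes, and none higher, with a median of -0.90. Of the 13 measured in the Krt14-low cells, 3 were higher (13.1% over all genes), none was lower and the median was 0.56. The genes of S phase had medians of -0.36 over all cells (13 measured) and 0.79 in the Krt14-low cells (12 measured). There 6 of the 12 were 2-fold or more higher, against 13.1% of all genes, and the median of all genes was 0.17. Few Krt14-low cells had Mki67 or Top2a present, 11 of 77 high and 4 of 43 low cells. Split into tertiles by the block sum, high cells had Mki67 or Top2a present in 1 of 38, 5 of 37 and 11 of 37 cells from the lowest to the highest tertile (2.63, 13.5 and 29.7%).

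The remaining lists are read against 5.50% of all genes higher and 8.68% lower over all cells, and 13.1% and 9.08% in the Krt14-low cells. Hypoxia and glycolysis genes had 2 of 15 higher and a median of 0.36, and 7 higher with a median of 0.88 in the Krt14-low cells. Car9, the hypoxia-induced carbonic anhydrase, stood at 87.2 against 21.5 CPM (1.97). Ankrd37, the other of the 2, had a ratio of 1.04 that was 0.47 without 1 high cell and 2.04 without 1 low cell. Interferon and MHC class I genes were divided, 4 of 15 higher and 3 lower, with medians of -0.01 over all cells and -0.32 in the Krt14-low cells (2 higher, 4 lower). Bst2 stood at 1.79 and Ifit1 at 3.70 (2.24 without 1 high cell), against Psmb9 at -1.51 and Tap1 at -1.45. Cytokines and chemokines had 1 of 11 higher, Csf1 (195.6 against 67.6 CPM), 3 lower and a median of -0.57, and none higher, 5 lower and a median of -0.64 in the Krt14-low cells. Il1a stood at 2.73 against 40.04 CPM. Immediate early and heat shock genes had none of 15 past 2-fold in either comparison, with medians of -0.50 and -0.45. Over all cells Egr1 was the 1 member above 0, at 0.12. Outside the block, 1 of 14 metalloproteases and inhibitors was higher (Mmp23, 1.36) and 1 lower (Mmp9, at 2.19 against 83.01 CPM, -4.72, and -3.14 without 1 low cell). The median of that list was 0.04, and -0.27 with none higher and 4 lower in the Krt14-low cells. Hair follicle genes had 1 of 10 higher (Tcf7l1, 1.12), 3 lower (Lhx2, at 0.109 against 13.3 CPM, Sox9 at -1.46 and Nfatc1 at -1.35) and a median of -0.59. In the Krt14-low cells 2 of 8 were lower and the median was -0.11.

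**Figure D5:**
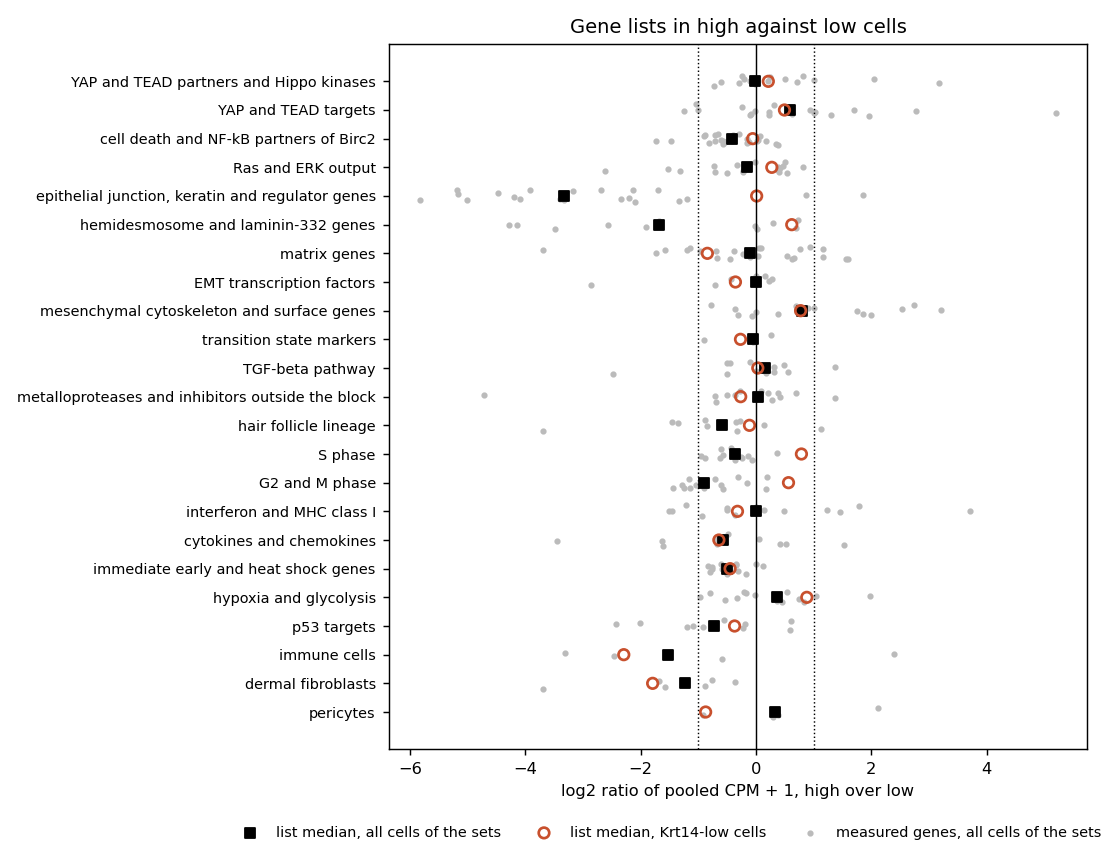
Log2 ratio of pooled CPM + 1 in high over low cells for the measured genes of each list with at least 3 of them (grey), with the list median over all cells of the sets (black square) and in the Krt14-low cells (open circle). The epithelial list goes from a median of -3.34 to 0.01, and that of the YAP and TEAD targets from 0.59 to 0.49.

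The genes followed the block sum in different ways within the high set. Ankrd1 stood at 9.55 CPM in low and 105.4 CPM in intermediate cells and at 247.6, 414 and 484 CPM from the lowest to the highest tertile of the high cells. Acta2 stood at 1536, 2655 and 5604 CPM in the same tertiles, and Tagln at 29.5, 57.4 and 66.9 CPM. Ccn1 stood at 2385, 1804 and 2335 CPM, with intermediate cells already at 2012 CPM, and Ccn2 at 689, 648 and 731 CPM. The summed level of the measured YAP and TEAD targets was 2627 CPM in low and 4332 CPM in intermediate cells and 5444, 5249 and 5925 CPM in the tertiles. Wwtr1 ran the other way, at 323 and 266.5 CPM in low and intermediate cells and at 211.5, 215.9 and 155.02 CPM in the tertiles. Each of these cells supplied both the sum and the gene, and the tertiles come from 1 sorted population, so the order is a description.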

How the data were processed

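RNA of single sorted cells was read with a Smart-seq2 protocol on a 384-well plate, with spike-in RNA and reads of 50 bases. The authors' deposited table holds raw read counts for 49585 genes and 92 spike-ins. The submitters' processing notes name cutadapt 1.13, STAR 2.5.2b, HTSeq 0.6.0 and the build GRCm38. The annotation release and strand setting were not given in the sources used here. Reads of overlapping or antisense genes therefore cannot be told apart. Symbols and positions came from GENCODE vM21 by gene ID, and 259 genes had no symbol.

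Kept cells had at least 100000 gene reads and 2000 genes, at most 20% mitochondrial reads and at most 50% spike-in reads. That left 263 of 310 Epcam-negative and 62 of 70 Epcam-positive cells. The sum of Yap1, Birc2 and Tmem123 CPM then set high (3000 or more, 112 cells), low (under 1000, 126 cells) and intermediate (25 cells). Reads of each set were pooled to CPM and ratios were log2((high + 1)/(low + 1)). Genes at 10 CPM or more in either set were measured, and a ratio of 2-fold was the only limit. A gene was present in a cell with 5 or more of 100000 thinned reads. Doublets were excluded by scatter in the sort, per the labels, and no caller was run. No count model was fitted, since each population is 1 sample. The ratios were tested on simulated data (Python 3.11.15, numpy 2.4.6, pandas 2.3.3, scipy 1.17.1). The simulated counts were Poisson draws from a common profile with known folds, so the spread between cells was not covered.

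The members, the lists and the limits were chosen with earlier results of these data known. Named genes were the 12 highest and 12 lowest ratios among genes at 50 CPM or more in the higher set, present in 30% or more of its cells, with the same sign in columns 1 to 12, in columns 13 to 24 and in the medians over cells (means where both medians were 0), without predicted, mitochondrial or ribosomal protein genes, once over all cells and once in the Krt14-low cells. Added to them were members of each list with the largest ratios or against its median, and a fixed group of marker genes. The lists held YAP and TEAD targets and partners, cell death and NF-kB, Ras and ERK, epithelial, hemidesmosome, matrix, EMT, cytoskeleton, TGF-beta, metalloprotease, hair follicle, cell-cycle, interferon, cytokine, stress, hypoxia and p53 target genes, and markers of other cell types. Alternatives covered the cell filter, the limits and genes of the sum, scaling, low values, plate position, cell state and single cells. Some genes and alleles that the naming rule or the labels give are not reported here.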

Additional observations from a re-analysis of the deposited data

Results flagged for a closer look

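The Epcam-negative well set up with 50 cells entered no comparison. It held 154897 gene reads and a summed Yap1, Birc2 and Tmem123 level of 6611 CPM, with Yap1 at 1298, Birc2 at 575 and Tmem123 at 4739 CPM. It is listed because it was left out of the comparisons. Its sum lay near that of the Epcam-negative well set up with no cell, 5973 CPM from only 24 of 4018 reads. The Epcam-positive well with no cell had 1088 CPM. Ankrd1 stood at 77.5 CPM in the 50-cell well. With 1 well of each kind, differences between these wells were not tested.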

How the results depend on the processing

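Many of the named genes were chosen by a rule that required the same sign in each set of plate columns. The rule was applied over all cells and again within the Krt14-low cells. For genes chosen this way, direction in the plate-column or Krt14-low settings was at least partly set by the selection. The settings draw largely on the same cells, so the counts that follow are no independent check. The counts include Birc3, a gene of the block. Nothing is read from its ratio, since the block was used to choose the cells. Over 23 alternative settings, 40 of the 44 named genes with a 2-fold ratio kept their direction in every setting and 38 also stayed 2-fold. The other 4 (Krt5, Krt14, Epcam and Mki67) turned in the Krt14-low cells, to ratios of 0.11 for Krt5, 0.00468 for Krt14, 0.42 for Epcam and 0.56 for Mki67, and Epcam was 0.15 without Epcam-present cells. These settings remove the cells that carry the keratins or Epcam, and for Mki67 the cause was not tested. Of 5 lists with a 2-fold median, the epithelial list turned to 0.0101 and the hemidesmosome list to 0.62 in the Krt14-low cells, and the immune list to 2.98 in plate rows D to I, where the cause was not tested.

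The share of measured genes that were 2-fold or more higher, 5.50% (509 genes), was 10.03% (957) in plate columns 13 to 24, 8.70% (807) in plate rows D to I, 8.75% (824) in rows J to P, 13.1% (1198) in the Krt14-low cells, 3.62% (328) without the high cell with most reads and 8.53% (767) without the low cell with most reads of each gene. The share of lower genes, 8.68% (803), was 13.2% (1222) in rows D to I, 12.6% (1201) in columns 13 to 24 and 11.5% (1064) per spike-in read. It was 12.6% (1144) without the high cell and 6.05% (544) without the low cell with most reads of each gene. A pseudocount of 10 CPM gave 2.52% higher and 4.74% (438) lower genes. With no minimum level 1244 genes were higher and 1909 lower of 23499, and with a minimum of 50 CPM 4146 genes were measured.

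The median of the YAP and TEAD targets, 0.59, was above 0 in all 23 settings: 0.35 with both limits at 2000 CPM, 0.45 with cells ranked by Yap1 alone, 0.18 as the mean of the CPM of each cell, 0.42 per spike-in read, 0.44 with a pseudocount of 10 CPM, 0.45 with no minimum level, 0.12 in rows D to I, 0.66 in rows J to P, 0.33 without the high cell and 0.65 without the low cell with most reads of each gene.

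The median of the other block genes, 2.84, was 3.08 with limits of 5000 and 500 CPM, 2.39 with both at 2000 CPM, 2.67 by Yap1 alone, 2.53 by Birc2 alone, 2.94 as the mean over cells, 2.66 per spike-in read, 2.11 with a pseudocount of 10 CPM, 0.69 with no minimum level, 2.96 with a minimum of 50 CPM, 2.58 in columns 13 to 24, 2.11 in rows D to I, 3.29 in rows J to P, 1.33 in the Krt14-low cells, 2.68 without the high cell and 3.25 without the low cell with most reads of each gene. The cause of these shifts was not tested. Leaving out the low cell was chosen after seeing the data.

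Scaling per spike-in read shifted log2 ratios by about -0.18, TMM scaling by about 0.01 and median-of-ratios scaling by about 0.03. With 1 CPM added to each level, the shift was not the same for every gene. Ankrd1 was present in 82.1% of high and 19.8% of low cells when 1 read counted, and in 36.6% and 0.794% when 20 were needed. No paired analysis was possible because the cells carry no shared replicate numbers and the result comes from no test. With cells of 1 population, no named animal and single cells that hold much of the reads of some genes, the ratios describe these cells only.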

Other observations

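In the 25 intermediate cells, 337 of the 509 higher genes had a level between those of the low and the high cells, and for 54.6% of the 509 the level was closer to that of the high cells. Of the 803 lower genes 460 lay between, and 517 were closer to the high cells. Trp63 stood at 8.16 CPM and Krt5 at 11.0 CPM in the intermediate cells. Their share of mid-level reads on chromosome 9 outside the block had a median of 4.81%, and 6 of 25 were under 4.2%.

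Among the 62 Epcam-positive cells, 2 had a block sum of at least 3000 CPM and 54 a sum under 1000 CPM. In those cells pooled, Ankrd1 stood at 1.45 CPM and Ccn1 at 255.02 CPM.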
